A study of Homo sapiens with 20 samples.

Results

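Chemokine ligands are small secreted proteins that call cells along a gradient, and their transcripts were described here across 20 biliary tract cancer cell lines. The members were all entries of the deposited count table whose RefSeq identifier maps to a CXCL or CCL symbol followed by a number, or to CX3CL1. This gave 38 of 24222 entries, of which 14 were CXCL genes, 23 were CCL genes and 1 was CX3CL1. A RefSeq gene table lists 39 such symbols, and the remaining one, CCL1, was not analysed here. No measured value entered the choice.

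The lines are established human cancer lines, each with 1 poly(A) RNA library, grown in a common serum-containing medium with no treatment named. By site of the tumour, 7 lines came from the gallbladder, 5 from the extrahepatic and 4 from the intrahepatic bile ducts, and 3 were ampullary, from the opening of the joined bile and pancreatic ducts into the intestine. The line OZ carries both bile duct labels and was kept out of the site comparisons. By the source label, 13 lines came from primary tumours and 7 from metastatic material, of which 6 were ascites and 1, Mz-ChA-2, a liver metastasis. The gallbladder lines were G415, Mz-ChA-2, NOZ and OCUG-1 (metastatic) and SNU-308, TGBC14TKB and TGBC2TKB (primary). The extrahepatic lines were Sk-ChA-1 (metastatic) and EGI-1, SNU-1196, SNU-245 and TFK-1 (primary), and the intrahepatic lines HuCCT1 (metastatic) and HuH28, SNU-1079 and TKKK (primary). The ampullary lines SNU-478, SNU-869 and TGBC18TKB were all primary, and OZ was metastatic. A line is the replicate in every comparison, so each spread below is a spread between lines and no value has a repeat culture behind it.

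Neutrophil-attracting CXCL chemokines, among them CXCL8 (interleukin-8), carry a short Glu-Leu-Arg motif before their first cysteine and act on the receptors CXCR1 and CXCR2, and their genes are classical targets of NF-kappa B downstream of interleukin-1 and tumour necrosis factor. CXCL9, CXCL10 and CXCL11 are induced by interferons and act on CXCR3 of activated T cells and NK cells. Epithelial cells of the bile duct and their tumours are known sources of several of these ligands, while other members are made mainly by stroma or leukocytes.

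RefSeq holds promoter windows for 28 of the 38 members, from the build GRCh38.p14. The stretches below, which end at the last base before the annotated start, are shown because most genes of both ligand sets share an NF-kappa B type element there. Capitals mark matches to GGAANTTCC, to the kappa B consensus or to the interferon-stimulated response element, searched as 2 copies of GAAA with 2 bases between them. Overlapping matches run together.
CXCL8: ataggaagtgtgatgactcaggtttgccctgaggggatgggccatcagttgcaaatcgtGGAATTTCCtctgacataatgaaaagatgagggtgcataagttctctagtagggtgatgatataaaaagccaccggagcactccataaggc
CXCL1: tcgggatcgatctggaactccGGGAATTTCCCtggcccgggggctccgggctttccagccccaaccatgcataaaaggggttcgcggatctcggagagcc
CXCL2: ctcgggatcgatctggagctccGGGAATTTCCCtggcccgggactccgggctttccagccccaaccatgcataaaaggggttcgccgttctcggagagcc
CXCL3: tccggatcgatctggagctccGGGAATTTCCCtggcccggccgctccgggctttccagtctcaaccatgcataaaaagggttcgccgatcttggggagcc
CXCL5: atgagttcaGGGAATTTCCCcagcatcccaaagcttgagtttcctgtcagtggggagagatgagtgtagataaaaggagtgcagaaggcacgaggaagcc
CXCL6: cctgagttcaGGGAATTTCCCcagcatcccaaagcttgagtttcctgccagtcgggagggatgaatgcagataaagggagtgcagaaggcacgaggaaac
CXCL10: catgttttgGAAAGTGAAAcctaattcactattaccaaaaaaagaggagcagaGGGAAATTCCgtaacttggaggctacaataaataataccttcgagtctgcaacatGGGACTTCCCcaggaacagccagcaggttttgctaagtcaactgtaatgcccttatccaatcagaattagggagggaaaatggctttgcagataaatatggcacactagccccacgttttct
CXCL11: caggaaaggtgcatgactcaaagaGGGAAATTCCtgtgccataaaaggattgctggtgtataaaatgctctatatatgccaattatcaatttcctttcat

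The stretches lie on chromosome 4, at chr4:73740419-73740568 for CXCL8, chr4:73836578-73836677 for CXCL6 and chr4:73869293-73869392 for CXCL1, all on the plus strand. On the minus strand lie CXCL5 at chr4:73998678-73998777, CXCL3 at chr4:74038690-74038789, CXCL2 at chr4:74099196-74099295, CXCL10 at chr4:76023498-76023727 and CXCL11 at chr4:76036071-76036170. In the 250 bases before the start, searched on both strands, GGAANTTCC was present in 8 of the 28 member promoters and in 0.831% of all 27305 promoters of that length. The 8 were CXCL10, CXCL11 and all 6 genes of the neutrophil-attracting set. In CXCL8 the match lies at bases -91 to -83 from the start, in CXCL1 at -78 to -70, and in CXCL5 at -90 to -82. The kappa B consensus, which overlaps GGAANTTCC, was matched in 9 of the 28 and in 9.57% of all promoters. The 9 were CCL20, CCL22 and the 8 genes above other than CXCL8, which had no match to it. The interferon-stimulated response element was matched in CXCL9 and CXCL10 and in 3.07% of all promoters, in CXCL10 at -221 to -212. TGANTCA, the AP-1 element, was matched in 6 of the 28 and in 6.6% of all. TTCNNNGAA, the GAS element, was matched in 7 of the 28, CXCL5, CXCL6 and CXCL11 among them, and in 6.78% of all. The promoters also resemble each other in pairs, with an identical run of 45 bases between CXCL5 and CXCL6, of 42 bases between CXCL1 and CXCL2, and of 37 bases between CXCL2 and CXCL3. A match describes the letters and was not tested as a binding site.

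Most chemokine ligands were barely transcribed in these lines, and the transcribed ones were high in different lines. Levels are counts-per-million values (CPM), scaled between libraries but not by transcript length, so values are compared between lines and not between genes. Of the 38 members, 23 reached 1 CPM in at least 1 line, 16 reached 10 CPM and 8 reached 100 CPM. Another 14 had reads but stayed under 1 CPM in every line, and CCL19, a homing signal for lymph node T cells, had no read in any library. A count of 0 allows up to 3 reads, which is 0.204 to 0.292 CPM in these libraries. Only CXCL8 was at or above 1 CPM in all 20 lines. A line had between 3 members at 1 CPM or more (G415) and 14 (HuCCT1 and SNU-478), with a median of 8.

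**Figure D1:**
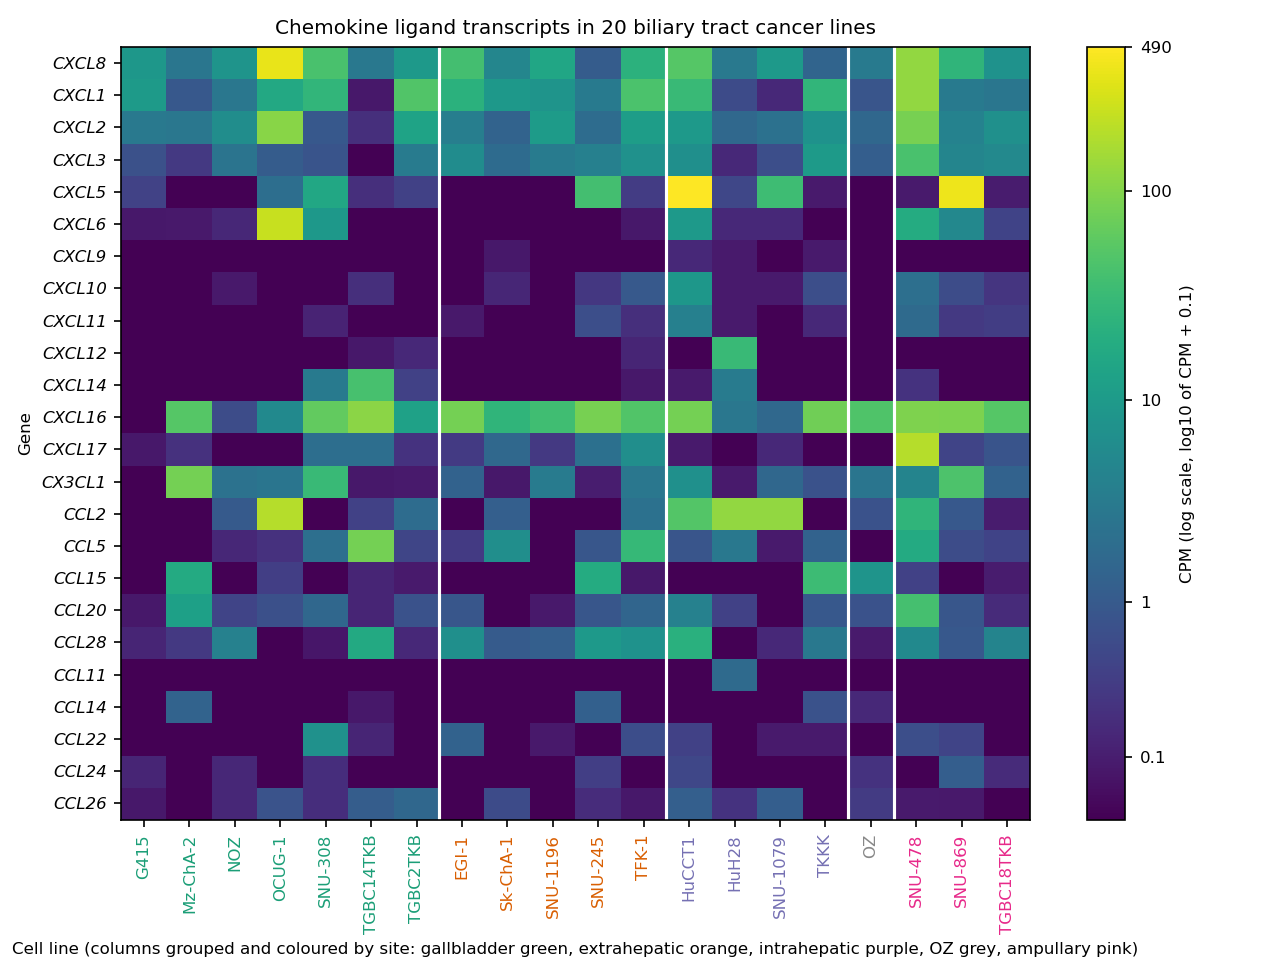
Levels of the chemokine ligands with at least 1 CPM in any line, and CXCL9, as CPM on a log colour scale, with 1 column per cell line grouped by site. Colours should be compared along a row; the CXCL8 row is above 1 CPM in every line, while CXCL12 is bright only in HuH28 (31.5 CPM).

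The highest level of a ligand often sat in a single line. Of the 16 members that reached 10 CPM, OCUG-1 held the highest level of 4 (CXCL8, CXCL2, CXCL6 and CCL2) and SNU-478 of another 4 (CXCL1, CXCL3, CXCL17 and CCL20). TGBC14TKB held that of CXCL14, CXCL16 and CCL5, and HuCCT1 that of CXCL5 and CCL28. For 7 of the 16, at least 50% of the CPM summed over 20 lines came from 1 line, from CXCL5 at that share to CXCL12 at 98.8%. At the other end, CXCL16 had 11.2% of its sum in its highest line.

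Among the neutrophil-attracting ligands, CXCL8 ran from 1.07 CPM in SNU-245 to 370 CPM in OCUG-1, with a median of 9.08 CPM. After OCUG-1 (exact Poisson 95% interval 359 to 380, counting error only) came SNU-478 at 125 CPM (119 to 131), HuCCT1 at 52.5, SNU-308 at 42.7 and EGI-1 at 38.9 CPM. The intervals of OCUG-1 and SNU-478 do not overlap, and 8 of the 20 lines were at or above 10 CPM. CXCL1, a melanoma growth-stimulating ligand of CXCR2, ran from 0.0702 CPM in TGBC14TKB to 123 CPM in SNU-478, with a median of 8.59 CPM, and TGBC2TKB was second at 49.4 CPM. CXCL2, its close paralog, ran from 0.211 CPM in TGBC14TKB to 107 CPM in OCUG-1, with a median of 4 CPM, and SNU-478 was second at 85.1 CPM. CXCL3 ran from 0 in TGBC14TKB to 43.3 CPM in SNU-478, with a median of 2.95 CPM, and TKKK was second at 10.3 CPM. SNU-478 was therefore high for CXCL1, CXCL2 and CXCL3 alike, and TGBC14TKB was lowest for all 3. These 3 genes are near-identical copies whose reads the counting may have split or dropped, and the CXCL1 entry stands under the non-coding identifier NR_046035, so their separate levels are uncertain.

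CXCL5 and CXCL6, the remaining CXCR2 ligands of the set, were near 0 in most lines and high in a few that differed between them. CXCL5 reached 490 CPM in HuCCT1 (477 to 503) and 395 CPM in SNU-869 (384 to 406), then 38.1 in SNU-245, 35.3 in SNU-1079 and 16.4 in SNU-308, with a median of 0.282 CPM. CXCL6 reached 240 CPM in OCUG-1 (232 to 249), then 18.7 in SNU-478, 9.67 in HuCCT1, 9.19 in SNU-308 and 5.2 in SNU-869, with a median of 0.0754 CPM. Lines that ranked at the top for one were not always so for the other. OCUG-1 had 2.09 CPM of CXCL5 beside its 240 CPM of CXCL6, and SNU-478 had 0.0843 CPM of CXCL5, a single read, beside 18.7 CPM of CXCL6. SNU-245 and SNU-1079 had the reverse pattern, with CXCL6 at 0 and 0.166 CPM. The pair of genes that share the longest identical promoter run of the set thus had their highest levels in different lines.

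**Figure D2:**
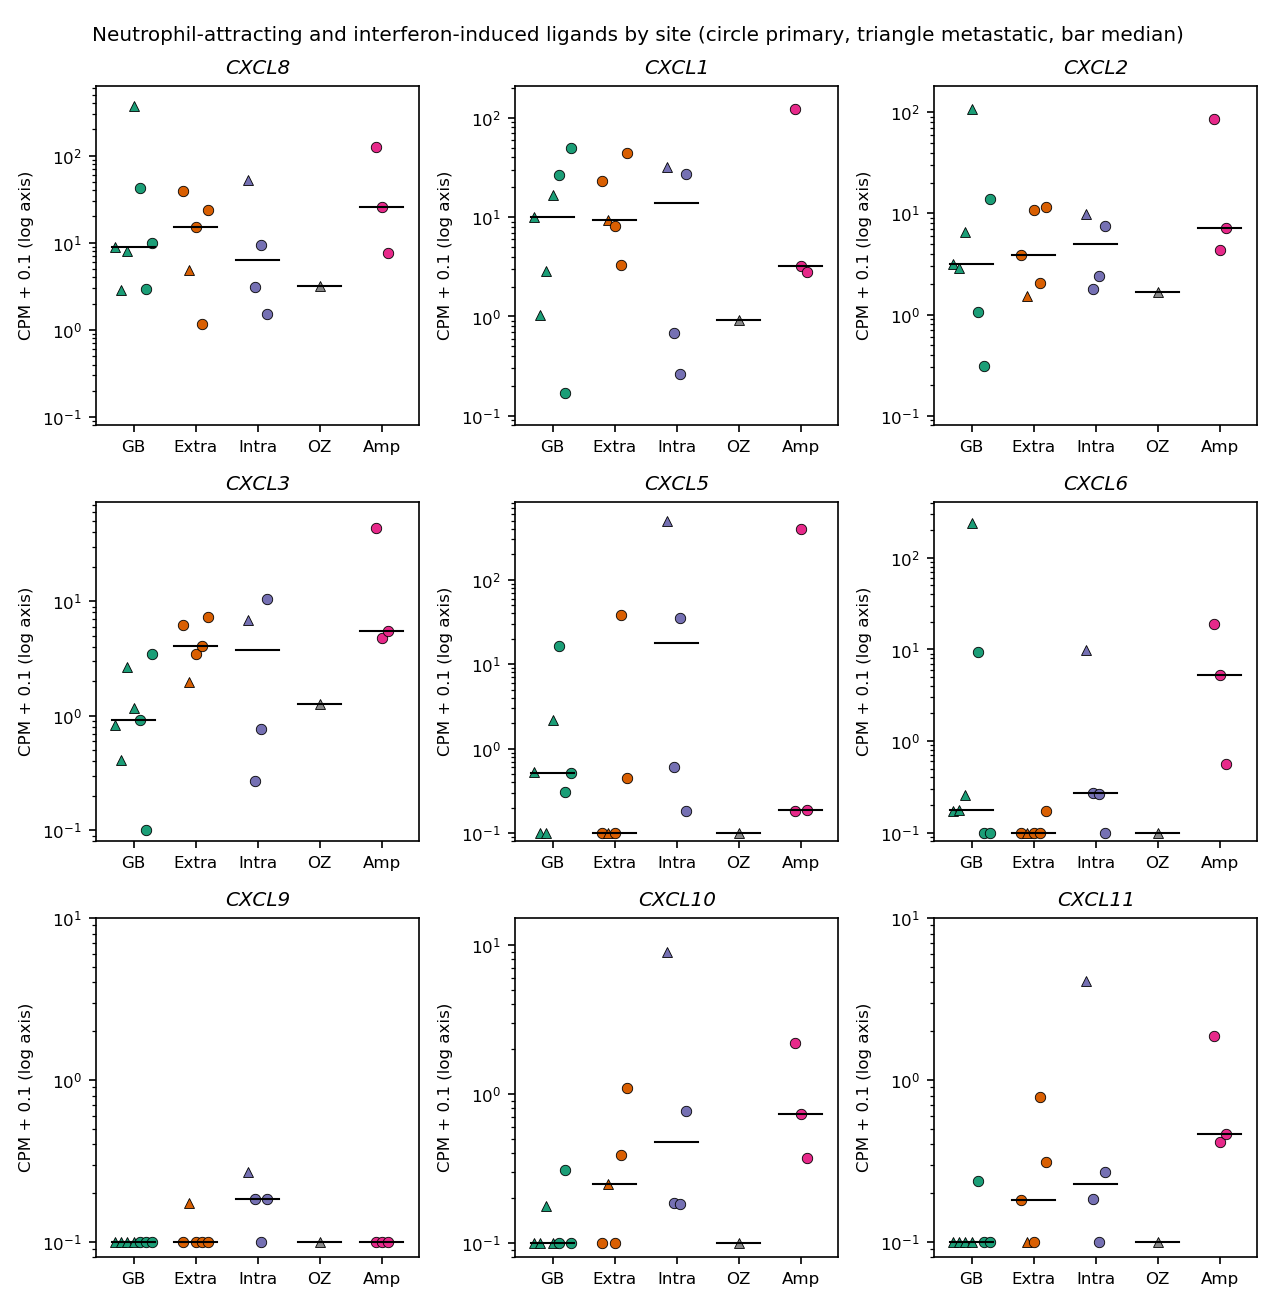
CPM plus 0.1 on log axes for the 6 neutrophil-attracting and 3 interferon-induced ligands, 1 point per line, by site (GB gallbladder, Extra and Intra the bile ducts, OZ, Amp ampulla). In most panels a site's points span more than the distance between the site medians, as for CXCL8 in gallbladder lines (2.73 to 370 CPM).

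The interferon-induced ligands were scarce. CXCL9 had 5 reads in all 20 libraries together, with at most 0.17 CPM in HuCCT1. CXCL10 ran from 0 to 8.91 CPM, with a median of 0.0835 CPM. HuCCT1 was highest with 105 reads (7.28 to 10.8 CPM), followed by SNU-478 with 25 reads (2.11 CPM, 1.36 to 3.11) and TFK-1 with 14 reads (0.989 CPM, 0.541 to 1.66). The interval of HuCCT1 lies above that of SNU-478, while those of SNU-478 and TFK-1 overlap. CXCL11 had the same leading lines, at 3.99 CPM in HuCCT1 (47 reads) and 1.77 CPM in SNU-478 (21 reads), then 0.682 CPM in SNU-245 (7 reads). For each of CXCL10 and CXCL11, 2 lines reached 1 CPM. CXCL10 had a read in 12 lines and CXCL11 in 10, and below TFK-1 and SNU-245 few of the differences were detectable at this depth.

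The sets were set against each other by a score per line, the mean over a set's genes of log2 CPM (prior count 2) after subtracting each gene's mean over 20 lines. The neutrophil-attracting score was highest in HuCCT1 (3.26), OCUG-1 (3.21) and SNU-478 (3.08), then SNU-869 (2.06), and lowest in TGBC14TKB (-3.03). The interferon-induced score was highest in HuCCT1 (3.11) and SNU-478 (1.72), and at its floor of -0.76 in lines with no read of any of the 3 genes, OCUG-1 among them. The difference between the scores was largest in OCUG-1 (3.96) and smallest in TGBC14TKB (-2.68). Of the 20 lines, 4 were above 0 in both scores (HuCCT1, SNU-478, SNU-869 and TFK-1) and 10 were below 0 in both. OCUG-1, SNU-308 and TGBC2TKB were above 0 in the neutrophil-attracting score alone, and TKKK, SNU-245 and TGBC18TKB in the interferon-induced score alone. With a prior count of 0.5, the difference changed sign in HuCCT1 (from 0.15 to -0.6) and TFK-1 (from 0.04 to -0.28).

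**Figure D3:**
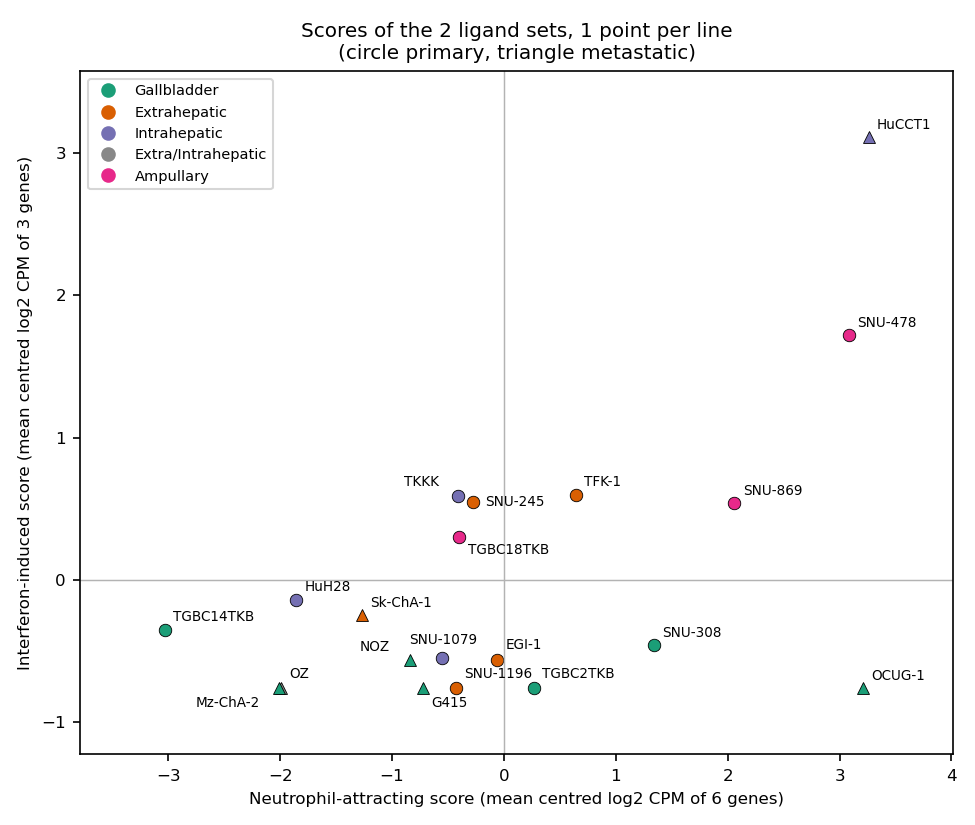
Neutrophil-attracting score against interferon-induced score, both as mean centred log2 CPM, 1 point per line coloured by site. HuCCT1 and SNU-478 are high on both axes, and OCUG-1 is high on the neutrophil axis (3.21) and at the floor of the other (-0.76).

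The neutrophil-attracting score overlapped between all 4 sites. The interferon-induced score overlapped in every pair of sites except gallbladder (-0.76 to -0.35) and ampullary lines (0.3 to 1.72). The neutrophil-attracting score was 1.58 ± 1.79 (SD, n = 3) in ampullary, 0.11 ± 2.2 (n = 4) in intrahepatic, -0.26 ± 2.09 (n = 7) in gallbladder and -0.28 ± 0.69 (n = 5) in extrahepatic lines. The interferon-induced score was 0.85 ± 0.76 in ampullary, 0.75 ± 1.64 in intrahepatic, -0.08 ± 0.63 in extrahepatic and -0.63 ± 0.17 in gallbladder lines. All 7 gallbladder lines were below 0 in the interferon-induced score and all 3 ampullary lines above it. The gap between these sites rests on very few reads of CXCL10 and CXCL11, as CXCL9 had no read in either site. The ampullary line TGBC18TKB had CXCL10 at 0.273 CPM, its 3-read floor, and CXCL11 at 0.363 CPM. The gallbladder line TGBC14TKB had CXCL10 at 0.211 CPM, also its 3-read floor, and CXCL11 at 0. How many of all genes separate the same lines was not examined. By source label, the neutrophil-attracting score was 0.03 ± 1.57 in 13 primary and -0.05 ± 2.3 in 7 metastatic lines, and the interferon-induced score 0.06 ± 0.73 and -0.1 ± 1.43. The scores are descriptions and carry no test.

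The other ligands that reached 10 CPM each had their own leading lines. CXCL16, a membrane-anchored ligand of CXCR6 that also acts as a scavenger receptor, was the most evenly present, at 10 CPM or more in 15 lines, with a median of 50.3 CPM and a highest level of 110 CPM in TGBC14TKB. It was at 0 in G415, 0.62 CPM in NOZ and 1.66 CPM in SNU-1079. CX3CL1, the fractalkine that is likewise anchored in the membrane, reached 83.9 CPM in Mz-ChA-2, 45.2 in SNU-869 and 32.1 in SNU-308, with a median of 1.95 CPM. CCL22 and CCL17, ligands of CCR4 whose genes flank CX3CL1 on chromosome 16, were highest in SNU-308, at 7.22 and 0.953 CPM. CXCL17, a mucosal chemokine, stood at 190 CPM in SNU-478 (183 to 198), which held 91.7% of its summed CPM, and at 6.5 CPM in TFK-1. CCL20, the CCR6 ligand of mucosal surfaces, stood at 39.5 CPM in SNU-478 and 12.6 CPM in Mz-ChA-2, and was at most 4.07 CPM elsewhere. CCL28, an epithelial ligand of CCR10, stood at 22 CPM in HuCCT1 and 17.4 CPM in TGBC14TKB, with 11 lines at 1 CPM or more.

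CCL2, the monocyte attractant that acts on CCR2, fell into high and low lines. OCUG-1 led with 192 CPM, followed by HuH28 (123 CPM, 117 to 130) and SNU-1079 (122 CPM, 116 to 128), whose intervals overlap, and then by HuCCT1 (50.1 CPM) and SNU-478 (25.8 CPM), and the other 15 lines were at or below 2.26 CPM. CCL5, a T cell attractant, stood at 81.6 CPM in TGBC14TKB, 29.3 in TFK-1 and 17.8 in SNU-478, with a median of 0.565 CPM. CCL15, a CCR1 ligand, stood at 34.2 CPM in TKKK, 18.6 in SNU-245, 18.1 in Mz-ChA-2 and 8.06 in OZ, and at most 0.422 CPM elsewhere. Its neighbours on chromosome 17 were highest in different lines among these. CCL14 stood at 1.4 CPM in Mz-ChA-2 and 1.27 CPM in SNU-245, and CCL23 at 0.755 CPM in TKKK and 0.487 CPM in SNU-245. CCL14 and CCL15 can share transcripts, so their reads may not be separable. CXCL14 stood at 41.1 CPM in TGBC14TKB, 3.28 in HuH28 and 3.06 in SNU-308. CXCL12, the stromal ligand of CXCR4, stood at 31.5 CPM in HuH28 (28.4 to 34.9) and at most 0.167 CPM elsewhere. CCL11, an eosinophil attractant, had all of its reads in HuH28 (1.77 CPM).

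**Figure D4:**
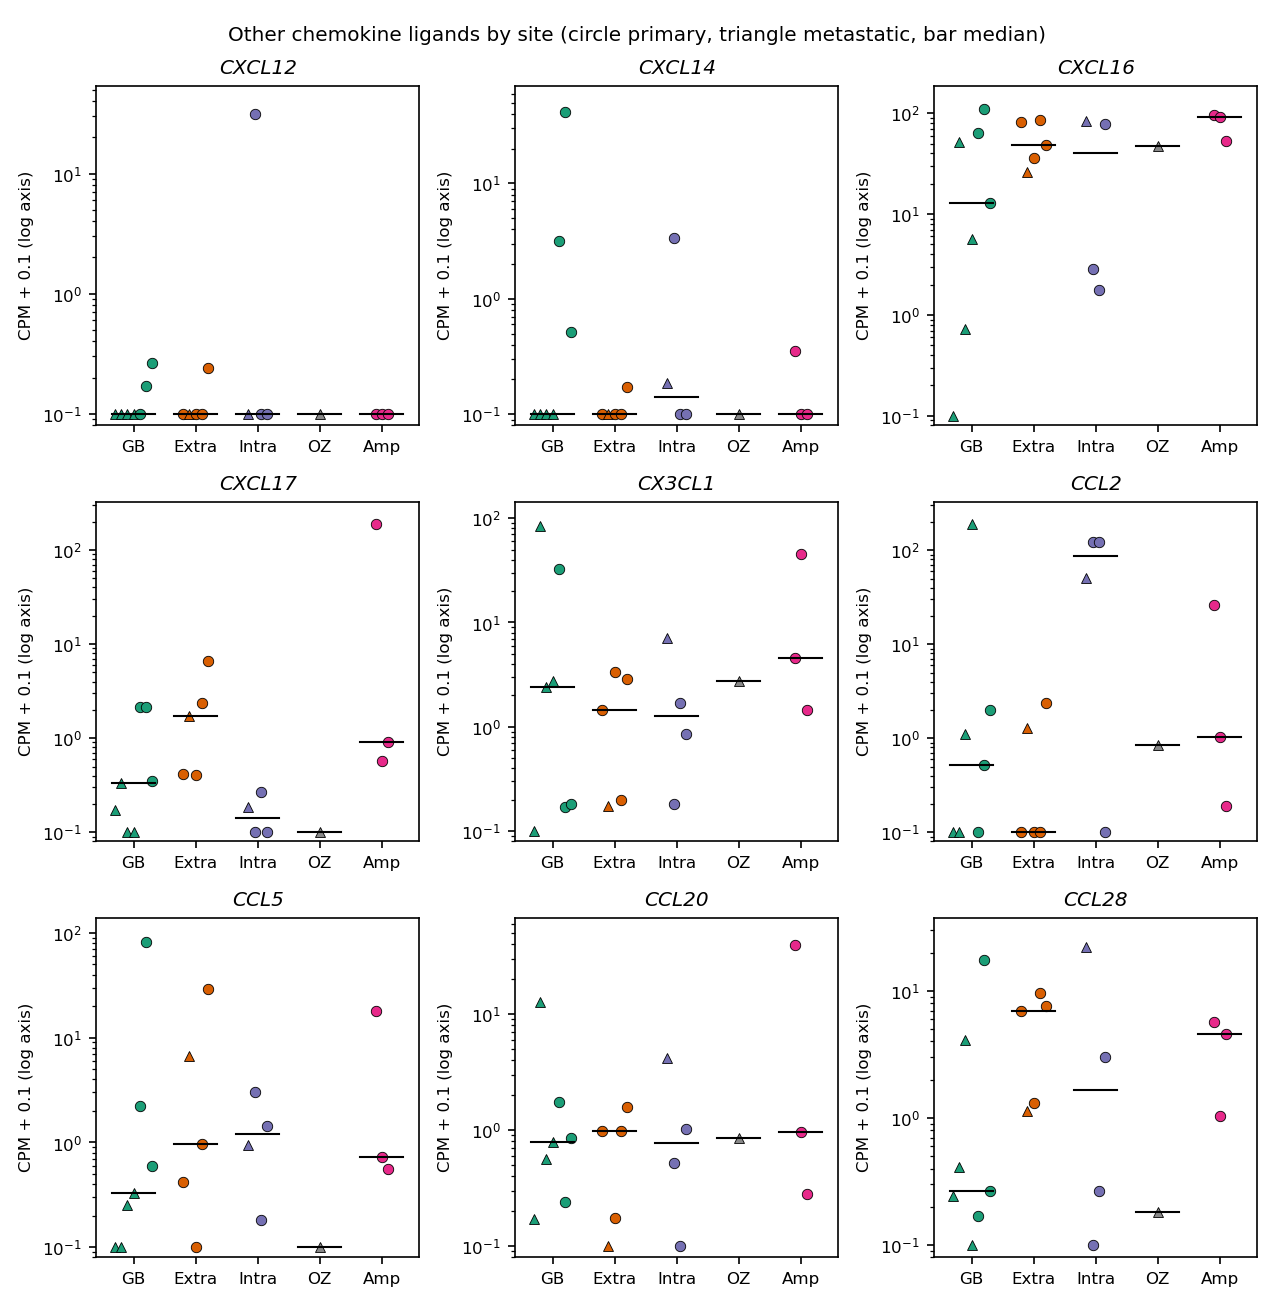
CPM plus 0.1 on log axes for 9 further chemokine ligands, 1 point per line, by site (GB gallbladder, Extra and Intra the bile ducts, OZ, Amp ampulla). CXCL16 is above 10 CPM in 15 of 20 lines, whereas CXCL12 and CXCL17 each have a single high line (31.5 CPM in HuH28 and 190 CPM in SNU-478).

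HuH28 was the most extreme line in its lineage markers, and some other lines had part of the same pattern. Its fibroblast markers summed to 9710 CPM against a median of 86.3 CPM over lines, with COL1A1 at 7830 CPM, and its epithelial markers summed to 193 CPM against a median of 8180 CPM, with EPCAM at 0.252 CPM. COL1A1 also stood at 4130 CPM in SNU-1079 and 2050 CPM in TGBC2TKB, and THY1 at 389 CPM in TGBC2TKB. All 8 epithelial markers reached 1 CPM in at least 18 lines, but some further lines were far under the medians. EPCAM stood at 1.08 CPM in OCUG-1, 5.46 in Mz-ChA-2 and 22.4 in G415, against a median of 407 CPM. CDH1 stood at 0.695 CPM in OCUG-1 and 0.945 in G415, against a median of 295 CPM. Leukocyte markers summed to 0.509 to 50 CPM, and 7 of 10 reached 1 CPM in any line. PTPRC, the defining one, reached at most 1.34 CPM. ITGAX reached 32.9 CPM and CD14 13.1 CPM in TGBC2TKB, and CD3D 14 CPM in Mz-ChA-2. Endothelial markers summed to 0.0831 to 100 CPM. TEK reached 84.2 CPM and VWF 15.9 CPM in G415, KDR 54.3 CPM in HuH28 and CDH5 19.5 CPM in OCUG-1. PECAM1 was at most 8.84 CPM and EMCN at most 0.0909 CPM. The part of these markers in the levels of CXCL12, CXCL14 and CCL2 in HuH28 was not tested.

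Site was tested with edgeR's quasi-likelihood test on 19 lines and 16615 genes, each site against the mean of the other 3, with Benjamini-Hochberg adjustment over all genes. Of the 38 members 17 passed the filter on low counts. A member could pass through the lines where it is high alone, so counts among the 17 are descriptions. None of the 17 was past an adjusted p of 0.05 in any site contrast, beside 0% of all genes for gallbladder, intrahepatic and extrahepatic lines and 0.00602% (1 gene) for ampullary lines. Common dispersion was 0.915, which means that a gene's level differed widely between lines of one site.

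In gallbladder lines, 4 of the 17 members were under an unadjusted p of 0.05, beside 12.3% of all genes, and the members' median log2 difference was 0.58, beside 0.11 for all genes. CXCL14 ran from 0 to 41.1 CPM in gallbladder lines with a median of 0, and its log2 difference was 5.63 ± 1.73 (SE, edgeR adjusted p = 0.237), or 1.71 with limma-voom. CXCL10 ran from 0 to 0.211 CPM with a median of 0, at or under the 3-read floor in every gallbladder line, and its fitted log2 difference of -4.13 ± 1.32 (edgeR adjusted p = 0.248) depends on the prior count and is no bound. CXCL6 ran from 0 to 240 CPM with a median of 0.078 CPM, and its log2 difference of 5.49 ± 1.79 (edgeR adjusted p = 0.258) was 1.00 without OCUG-1 and 0.18 with repository as a covariate. CXCL3 ran from 0 to 3.34 CPM with a median of 0.817 CPM, against site medians of 3.68 CPM (intrahepatic), 3.99 CPM (extrahepatic) and 5.36 CPM (ampullary), and the ranges overlapped with the bile duct lines. Its log2 difference was -2.48 ± 0.92 (edgeR adjusted p = 0.284), and DESeq2 called it at -2.52 (adjusted p = 0.0458), beside 2.36% of all genes called by that tool.

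In ampullary lines, 3 of the 17 members were under an unadjusted p of 0.05, all higher, beside 5.25% of all genes, and the members' median was 1.41, beside -0.11 for all genes. All 6 neutrophil-attracting genes had positive differences, with a median of 2.23, beside -0.11 for all genes, but several followed single lines. CXCL1 stood at 123 CPM in SNU-478 but at 3.15 and 2.73 CPM in SNU-869 and TGBC18TKB, under its 20-line median of 8.59 CPM. CXCL5 stood at 395 CPM in SNU-869 and at 0.0843 and 0.0909 CPM in the other lines. CXCL8 was at 7.54 CPM in TGBC18TKB, under its median of 9.08 CPM. CXCL2, CXCL3 and CXCL6 were above their medians in all 3 lines. CXCL17 stood at 190, 0.818 and 0.473 CPM in the 3 lines, and its log2 difference was 7.03 ± 1.29 (edgeR adjusted p = 0.151). Without SNU-478 it was 0.45 (adjusted p = 1), and without SNU-869 it was 7.65 (adjusted p = 0.0436), so the value rests on SNU-478. DESeq2 called 0 members here, beside 0.82% of all genes. CXCL3 stood at 43.3, 5.36 and 4.65 CPM, with a difference of 2.56 ± 0.92 (edgeR adjusted p = 0.904) and of 0.76 without SNU-478. CCL20 stood at 39.5, 0.866 and 0.182 CPM, and its difference of 3.36 ± 1.29 (edgeR adjusted p = 0.919) turned to -1.27 without SNU-478.

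In intrahepatic lines, 3 of the 17 members were under an unadjusted p of 0.05, beside 9.47% of all genes, with a median of -0.05, beside 0.04. CXCL10 stood at 8.91, 0.671, 0.0841 and 0.083 CPM in HuCCT1, TKKK, HuH28 and SNU-1079, with a log2 difference of 3.31 ± 1.12 (edgeR adjusted p = 0.295), and of 1.5 with repository as a covariate. CCL2 stood at 123, 122, 50.1 and 0 CPM in HuH28, SNU-1079, HuCCT1 and TKKK, with a difference of 3.77 ± 1.76 (edgeR adjusted p = 0.523), and of 5.65 without OCUG-1. CXCL17 was at most 0.166 CPM in these lines, under the 3-read floor, and its fitted difference was -5.94 ± 2 (edgeR adjusted p = 0.295), or -3.77 without SNU-478. Of 8 fibroblast markers 7 were tested. In intrahepatic lines all 7 had positive differences, 5 of them under an unadjusted p of 0.05 and none called, with a median of 4.71. Several of these differences followed HuH28 alone. COL3A1 stood there at 577 CPM, THY1 at 1090, PDGFRA at 131 and DCN at 48.1. Each stayed under 1 CPM in the other intrahepatic lines. COL1A1 was also high in SNU-1079 (4130 CPM), but stood at 2.18 CPM in TKKK. PDGFRB was highest among these lines in SNU-1079 (6.8 CPM). The part of the fibroblast markers in the CCL2 value was not tested. DESeq2 called 0 members here, beside 1.63% of all genes.

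In extrahepatic lines, 2 of the 17 members were under an unadjusted p of 0.05, both lower, beside 7.01% of all genes, with a median of -0.76, beside -0.02. CXCL6 was at 0 in 4 lines and at 0.0707 CPM, a single read, in TFK-1. Its fitted log2 difference of -8.47 ± 2.94 (edgeR adjusted p = 0.55) is no bound, and DESeq2 called it at -7.17 (adjusted p = 0.0131), beside 1.12% of all genes called by that tool, while limma-voom gave -4.17. CCL2 stood at 2.26 CPM in TFK-1, 1.19 CPM in Sk-ChA-1 and 0 in the other 3 lines, with a difference of -5.23 ± 2.46 (edgeR adjusted p = 0.705), and of -3.36 without OCUG-1. CXCL14 was at 0 in 4 of the 5 lines, and its difference was -5 ± 2.41 (edgeR adjusted p = 0.722), or -1.92 with repository as a covariate. CCL2, CXCL6 and CXCL14 were thus close to 0 in the extrahepatic lines, as they were in most lines of other sites.

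Metastatic and primary lines were compared over all 20 lines and 14843 genes, and 11 members passed the filter. None was past an adjusted p of 0.05, beside 0% of all genes, and 1 was under an unadjusted p of 0.05, beside 7.73% of all genes. DESeq2 called 0 members, beside 1.22% of all genes. The members' median was -0.45, beside -0.02. CXCL17 had a lowest, median and highest level of 0, 0.473 and 190 CPM in primary lines and of 0, 0.0727 and 1.64 CPM in metastatic lines, with a log2 difference of -5.71 ± 2.03 (edgeR adjusted p = 0.521). The ranges overlap, and the difference was -2.33 with repository and -2.11 with site as a covariate. CCL5 ran through 0, 0.877 and 81.6 CPM in primary and 0, 0.155 and 6.63 CPM in metastatic lines, with a difference of -3.24 ± 1.62 (edgeR adjusted p = 0.651), and of -2.05 without TGBC14TKB. Within RIKEN, CCL5 had a median of 0.921 CPM in 4 primary and 0.424 CPM in 2 metastatic lines, and within HSRRB it stood at 2.94 CPM in the primary line and had a median of 0.155 CPM in 3 metastatic ones. CXCL3 ran through 0, 3.99 and 43.3 CPM in primary and 0.312, 1.16 and 6.7 CPM in metastatic lines, with a difference of -1.74 ± 0.97 (edgeR adjusted p = 0.694), which was -0.18 with site as a covariate and -0.89 without SNU-478. CXCL8 had a difference of 1.45 ± 0.96 (edgeR adjusted p = 0.759), with medians of 9.93 CPM in primary and 7.99 CPM in metastatic lines, so the medians point the other way from the fitted means. KCLB and DSMZ supplied primary lines only and Zurich metastatic lines only, so for those lines repository and origin cannot be told apart. The repository covariate took DSMZ and Zurich as a common level, so it does not separate them.

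Whether the origin difference itself differed between gallbladder and bile duct lines was tested on 17 lines and 16464 genes, of which 16 were members. None was past an adjusted p of 0.05, beside 0% of all genes, and 1 was under an unadjusted p of 0.05, beside 5.1%. DESeq2 called 0 members, beside 0.748% of all genes. The members' median was -1.45, beside 0.14 for all genes. CCL5 had a median of 2.11 CPM in primary and 0.0775 CPM in metastatic gallbladder lines, against 0.877 and 0.848 CPM in bile duct lines, and the difference of the differences was -7.05 ± 2.97 (edgeR adjusted p = 0.952), or -2.65 without TGBC14TKB. CXCL5 gave -7.08 ± 3.71 (edgeR adjusted p = 0.952), which turned to 6.96 without HuCCT1. CCL26, an eosinophil attractant that reached at most 1.58 CPM, gave -3.42 ± 2.04 (edgeR adjusted p = 0.952).

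Ligands were then related to each other over the 20 lines, on log2 CPM, with permutation p-values adjusted over 27 pairs. Among the neutrophil-attracting genes, CXCL8 rose with CXCL6 (Pearson r = 0.82, adjusted permutation p = 0.000405, Spearman rho = 0.6, adjusted p = 0.0329). Without OCUG-1 and SNU-478, the lines farthest from the median of CXCL8, r was 0.63 (adjusted p = 0.0417), and within the repositories KCLB and RIKEN, of 6 lines each, r was 0.84 and 0.84. CXCL8 and CXCL1 gave r = 0.57 (adjusted permutation p = 0.0407) and rho = 0.57 (adjusted p = 0.0391), with r = 0.5 (adjusted p = 0.0829) without those 2 lines and r = 0.65 and 0.38 within KCLB and RIKEN. CXCL8 and CXCL2 gave r = 0.67 (adjusted permutation p = 0.009) and rho = 0.54 (adjusted p = 0.0509), but r = 0.34 (adjusted p = 0.276) without the 2 lines, so that relation rests on them, and r = 0.56 and 0.41 within KCLB and RIKEN. No relation past the threshold was seen for CXCL8 with CXCL3 (r = 0.35, rho = 0.33), with CXCL5 (r = 0.24, rho = 0.28) or with CCL20 (r = 0.33, rho = 0.26), and their adjusted permutation p-values were 0.216, 0.371 and 0.227. Within KCLB lines CXCL8 and CXCL5 gave r = -0.38 and within RIKEN lines 0.84.

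CXCL10 and CXCL11, neighbours on chromosome 4, gave r = 0.89 (adjusted permutation p = 0.000405) and rho = 0.76 (adjusted p = 0.00729), and r = 0.66 (adjusted p = 0.0417) without HuCCT1 and SNU-478. Within KCLB and RIKEN lines r was 0.88 and 0.95. CXCL10 and CCL5 were related by rank (rho = 0.66, adjusted permutation p = 0.0192) and not past the threshold by Pearson's r (0.44, adjusted p = 0.0988). Between the sets, CXCL8 and CXCL10 gave r = 0.22 (adjusted permutation p = 0.395) and rho = -0.02 (adjusted p = 0.935), and CXCL1 and CXCL10 gave r = 0.36 (adjusted p = 0.196) and rho = 0.21 (adjusted p = 0.425). A relation between the sets was thus not detectable in these 2 pairs. CXCL9 and CXCL10 fell into separate clusters of 4 and 16 lines by their reads and were not pooled.

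**Figure D5:**
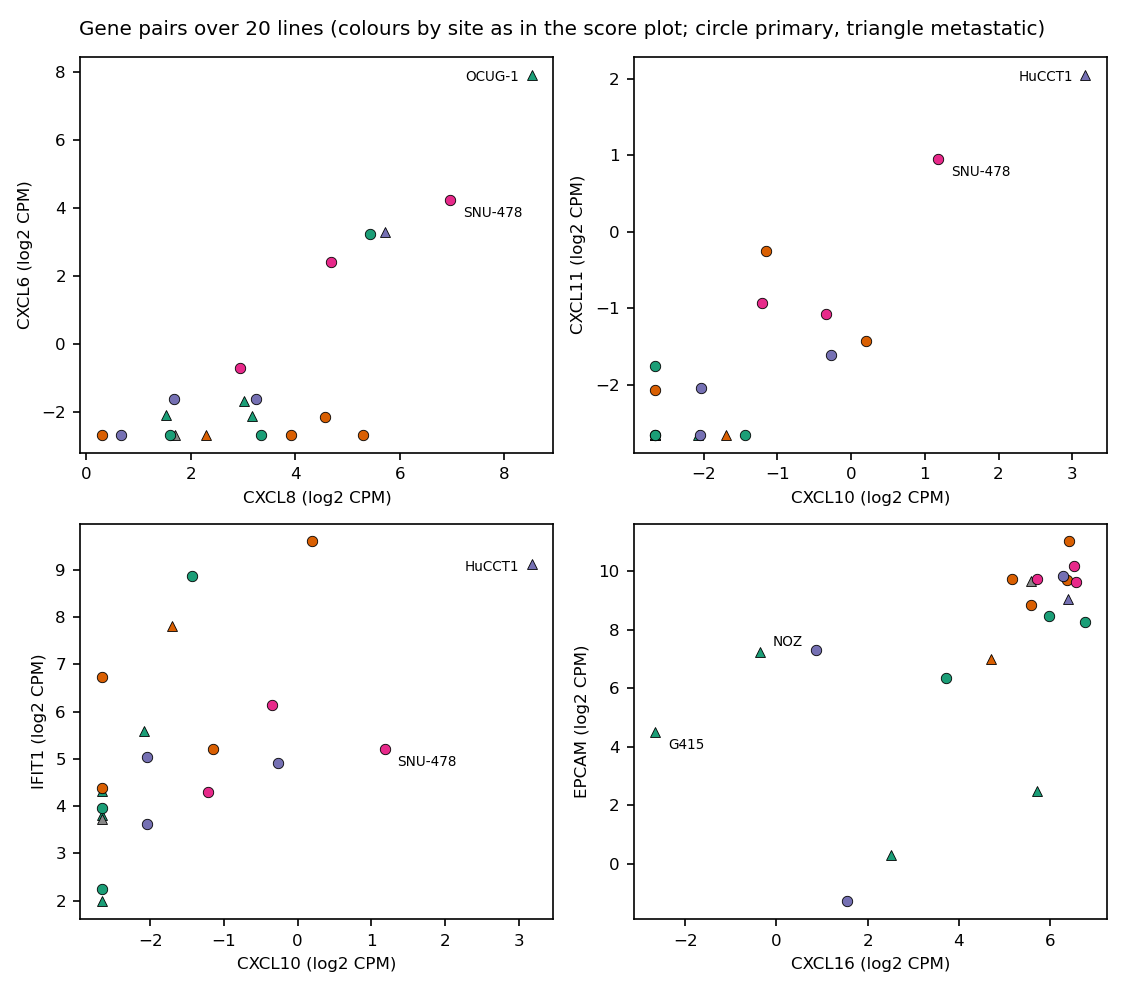
log2 CPM of CXCL6 against CXCL8, CXCL11 against CXCL10, IFIT1 against CXCL10 and EPCAM against CXCL16, 1 point per line, with the colours of the score plot. CXCL6 is near its floor in most lines and climbs with CXCL8 in the lines above it (r = 0.82), and the CXCL10 panels are led by HuCCT1.

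Other interferon-stimulated transcripts were related to CXCL10. IFIT1 gave r = 0.6 (adjusted permutation p = 0.0251) and rho = 0.64 (adjusted p = 0.0192), MX1 r = 0.58 (adjusted p = 0.0251) and rho = 0.59 (adjusted p = 0.0345), and ISG15 r = 0.54 (adjusted p = 0.0426) and rho = 0.49 (adjusted p = 0.058). Without HuCCT1 and SNU-478 the values were 0.6, 0.58 and 0.52, with adjusted p-values of 0.0543, 0.0556 and 0.0725, and within KCLB and RIKEN lines r was 0.7 and 0.67 for IFIT1, 0.5 and 0.64 for MX1 and 0.52 and 0.63 for ISG15. The lines with the highest IFIT1 and ISG15 were not the line with the highest CXCL10. TFK-1 led for IFIT1 (772 CPM) and came after HuCCT1 and SNU-478 for CXCL10, at 0.989 CPM. TGBC14TKB led for ISG15 (771 CPM), with 469 CPM of IFIT1 and 0.211 CPM of CXCL10, or 3 reads. Both lines were above the CXCL10 median of 0.0835 CPM. HuCCT1, with the highest CXCL10 (8.91 CPM), had 553 CPM of IFIT1 and 444 CPM of ISG15. IRF1 (r = 0.31, rho = 0.37), a transcription factor induced by interferon-gamma, was not past the threshold (adjusted permutation p = 0.251), and gave r = 0.24 within KCLB and 0.29 within RIKEN lines. The interferon gene IFNB1 was at most 0.509 CPM in any line.

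No NF-kappa B or interleukin-1 gene that was paired with CXCL8 passed the threshold. IL1B gave r = 0.47 (adjusted permutation p = 0.0802) and rho = 0.53 (adjusted p = 0.0509), with 0.58 and 0.94 within KCLB and RIKEN. The others were IL1A r = 0.39 (adjusted p = 0.169) and rho = 0.49 (adjusted p = 0.058), and IL6 r = 0.33 (adjusted p = 0.227) and rho = 0.5 (adjusted p = 0.0572). TNFAIP3 gave r = 0.28 (adjusted permutation p = 0.308) and rho = 0.27 (adjusted p = 0.315), and NFKBIZ r = -0.2 (adjusted p = 0.433) and rho = -0.11 (adjusted p = 0.714). OCUG-1, with the highest CXCL8, had 2.63 CPM of IL1B, 0.773 of IL1A and 14.1 CPM of NFKBIZ. The 20-line medians were 1.33, 0.765 and 85.3 CPM, and the highest levels 42.1, 78.6 and 557 CPM in other lines. Its IL6 was at 2.55 CPM against a median of 0.129 CPM, and its TNFAIP3 at 18 against 19 CPM. The part of these genes in the CXCL8 level of OCUG-1 was not tested. Of 22 genes in the NF-kappa B and interleukin-1 list, 21 were tested by site and none was called in any contrast. BIRC3, an inhibitor of apoptosis induced by NF-kappa B, had the smallest p in gallbladder lines, with a log2 difference of -2.64 ± 0.72 (edgeR adjusted p = 0.216). In the interferon response list 24 of 26 genes were tested and none was called.

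Among lineage genes, CXCL16 rose with EPCAM, an epithelial surface protein (r = 0.56, adjusted permutation p = 0.0426, rho = 0.65, adjusted p = 0.0192). Without G415 and NOZ r was 0.69 (adjusted p = 0.0417), and within KCLB and RIKEN lines it was 0.8 and 0.9. CXCL17, CX3CL1 and CXCL14 gave r = 0.38, 0.12 and -0.17 with EPCAM and rho = 0.37, 0.22 and -0.28, with adjusted permutation p-values of 0.169, 0.628 and 0.493. CCL2 and the mesenchymal filament gene VIM fell into separate clusters of 5 and 15 lines by CCL2, and within the 15 lower lines r was 0.49, with no pooled value given. For CXCL12 and VIM, r was 0.22 in 9 and -0.34 in 11 lines.

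Receptors of both ligand sets were scarce in the same lines. CXCR2, the receptor of the neutrophil-attracting ligands, was at most 3.31 CPM and CXCR1 at most 0.945 CPM, both in SNU-869, which also had 395 CPM of CXCL5. HuCCT1, with the highest CXCL5 (490 CPM), had 0.0848 CPM of CXCR2 and no read of CXCR1. CXCR3 was at most 0.363 CPM, and CX3CR1 at most 0.168 CPM. Of 22 receptor genes, 14 reached 1 CPM in any line and CCR8 had no read. CXCR4 stood at 53.2 CPM in HuCCT1 and 31.3 CPM in SNU-478, while CXCL12, its ligand, had no read in either. CCR10 was highest in TGBC14TKB (16.9 CPM), where its ligand CCL28 was second highest, but stood at 0.254 CPM in HuCCT1, the line with the highest CCL28 (22 CPM). Atypical receptors, which bind chemokines without the usual signalling, were high in few lines, with ACKR1 at 91.8 CPM in HuH28, ACKR2 at 36.2 CPM in TKKK and ACKR3 at 73 CPM in TGBC2TKB and 71.1 CPM in HuH28. Of the 7 receptor genes tested by site, none was called, with ACKR2 in intrahepatic lines at 4.26 ± 1.16 (edgeR adjusted p = 0.165). Of 9 chemokine genes with other names, 4 reached 1 CPM, and PF4V1, which lies between CXCL6 and CXCL1, had its highest level of 7.49 CPM in OCUG-1, the line with the highest CXCL6.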

How the data were processed

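RNA sequencing counts of 20 biliary tract cancer lines were used, 1 library each (Illumina TruSeq Stranded mRNA, per the labels' protocols). The authors deposited 1 table of raw read counts per RefSeq identifier, with no normalization. Trimmomatic, TopHat2 2.0.8, Picard 1.69, featureCounts and the builds hg19 and GRCh37 are named in the submitters' processing notes. The strand setting and annotation release were not given in the sources used here. Overlapping genes may therefore share reads. Symbols were found for 23512 of 24222 identifiers in a RefSeq table and for 355 in GENCODE, and the other 355 held 0.484% of counts. That table, of another build, served for names, neighbours and its own promoter windows (the window listed first for a gene). Libraries held 10469013 to 15414668 counted reads.

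CPM used TMM factors (0.834 to 1.077). Tests used edgeR 4.0.16 in R 4.3.3 (filterByExpr, robust quasi-likelihood F test, two-sided, Benjamini-Hochberg over all genes tested, threshold 0.05), and scripts were tested on simulated data. Correlations used 100000 permutations, two-sided, of which the smallest possible p is 1e-05, and a pair was not pooled where either gene left a wide gap with at least 3 lines on each side. Intervals are exact Poisson 95% intervals of the count, and they and the floor of 3 reads cover counting error only. Alternatives were RLE scaling, DESeq2 1.42.0, limma-voom 3.58.1, other filters, covariates, line sets and prior counts.

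Named are the 9 genes of both ligand sets, every member with 10 CPM in any line, and the 3 members of smallest p in each contrast. Members named besides these (CCL11, CCL14, CCL17, CCL19, CCL22 and CCL23) and single receptors were chosen after their values were seen. The members and lists were chosen with earlier results of these data known. The labels name no sequencing batch, so the repository that supplied a line was used as a covariate instead. In that covariate the DSMZ and Zurich lines were merged into a common level. As DSMZ lines are all primary and Zurich lines all metastatic, origin and repository cannot be told apart within it.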

Additional observations from a re-analysis of the deposited data

Results flagged for a closer look

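In groups of 4 to 7 lines, the gap of a value to the nearest other line was taken on log2 CPM. The value was singled out where that gap took up more of the group's range than Dixon's 95% limit allows. This happened in 13 of 61 groups (21.3%). The limit is meant to flag about 1 in 20 groups of normally distributed values. Here many values were tied at 0 reads and both the high and the low end were flagged, so these shares cannot be compared. Values below are in CPM. In gallbladder lines the highest values set apart were 192 CPM of CCL2 in OCUG-1, 81.6 CPM of CCL5 in TGBC14TKB and 18.1 CPM of CCL15 in Mz-ChA-2. In extrahepatic lines SNU-245 stood apart with 18.6 CPM of CCL15 and 38.1 CPM of CXCL5. In intrahepatic lines TKKK stood apart with 34.2 CPM of CCL15 and, as the lowest, 0 CPM of CCL2, and HuH28 with 31.5 CPM of CXCL12 and 3.28 CPM of CXCL14. Among metastatic lines HuCCT1 stood apart with 490 CPM of CXCL5, 8.91 CPM of CXCL10 and 3.99 CPM of CXCL11, and Sk-ChA-1 with 1.64 CPM of CXCL17. The causes were not tested.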

How the results depend on the processing

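No paired analysis was possible because the labels match no line with another. They also give no replicate numbers, and those used here follow accession order. The edgeR count of 0 members called was the same under 169 of 173 alternatives. DESeq2 called 1 member in gallbladder lines (CXCL3) and 1 in extrahepatic lines (CXCL6), and it called 382, 133, 264 and 182 genes for gallbladder, ampullary, intrahepatic and extrahepatic lines, 181 for origin and 120 for its interaction with site, where edgeR called 0, 1, 0, 0, 0 and 0 and limma-voom 0, 8, 3, 0, 0 and 0. With OZ taken as intrahepatic, 1 member was called in ampullary lines (CXCL17, 7.13, adjusted p = 0.049). Leaving out each line in turn gave 0 to 1 members in ampullary lines (CXCL17 without SNU-869) and 0 to 0 in the other contrasts. Of 499 log2 differences of named members under alternatives, 494 kept their direction and side of the threshold, and 2 changed direction: CCL20 in ampullary lines (-1.27 without SNU-478, with -1.27 to 4.02 over all lines left out) and CXCL5 in the interaction (6.96 without HuCCT1, with -9.12 to 6.96). The median number of members per line was 8 at 1 CPM, 9.5 at 0.5 CPM and 4 at 5 CPM. Of 8 pairs past the threshold by Pearson's r, 3 were past it without the 2 farthest lines, 7 pairs were past it by Spearman's rho and 10 with a prior count of 0.5. CXCL8 and CXCL10 changed sign by rank (-0.02), and CXCL14 and EPCAM without HuH28 and TGBC14TKB (0.07). With a prior count of 0.5 the score difference became -0.6 in HuCCT1 and -0.28 in TFK-1. Some members no longer passed the filter when a line was left out and have no value there: CXCL10 in gallbladder and intrahepatic lines (without HuCCT1 or TFK-1, values for 17 of 19), CXCL14 in gallbladder and extrahepatic lines (without TGBC14TKB, SNU-308 or HuH28, 16 of 19) and CXCL17 by origin (14 of 20). Depth limits CXCL9, CXCL10 and CXCL11, whose reads over all lines were 5, 174 and 92. The causes of these changes were not tested.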

Other observations

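The genes whose levels over the 20 lines were most like those of CXCL8 and CXCL10 were taken by Pearson's r of log2 CPM, as a description with no test. For CXCL8 they were KRT5, a basal epithelial keratin (r = 0.78, and 0.89 without OCUG-1), ELOVL6, a fatty acid elongase (0.75 and 0.7), ASB9 (0.72), NDC1 (0.71), BLTP2 (0.71), SPAG5-AS1 (0.7), UTP15 (0.7) and CSTF3 (0.7). KRT5 ran from 0 to 36.5 CPM, highest in SNU-478. For CXCL10 they were SCO2 (r = 0.81, and 0.78 without HuCCT1), the receptor CXCR4 (0.76 and 0.68), BIRC3 (0.72), TYMP, an interferon-inducible thymidine phosphorylase whose gene lies beside SCO2 (0.71), UBD, a ubiquitin-like protein induced by interferon-gamma and tumour necrosis factor (0.71), CSKMT (0.68), C11orf98 (0.68) and ZDHHC11 (0.68). UBD ran from 0 to 123 CPM, highest in SNU-478, and CXCR4 from 0 to 53.2 CPM, highest in HuCCT1. All points share their libraries and their depth.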
